A study of Arabidopsis thaliana with 2 samples.

Results

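Early auxin response genes were compared between the Arabidopsis thaliana wax-deficient mutant cer6-2 and the wild type Ler-0. The genes were chosen by name, as those whose platform symbol starts with SAUR or GH3 or is IAA or ARF followed by a number. This gave 11 genes of the 9236 that had a named feature, 7 Aux/IAA genes and 4 GH3 genes. No feature carried a SAUR or an ARF symbol, so these families have no value here. Of the 22575 features, 13200 carry no name, and genes without a value here may lie among them. Measured genes below are those with a named feature. Every one of the 11 genes was represented by 1 feature.

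Each genotype was 1 RNA pool made from leaves and stems of 20 untreated plants. They were grown at 22 °C in long days (16 h light, 8 h dark) with air humidity held at 80%. The labels give an age of 15 days and the design text 2 weeks. The cer6-2 allele affects CER6, a ketoacyl-CoA synthase that elongates fatty acids for surface wax. Array 1 carried cer6-2 in Cy3 and Ler-0 in Cy5, and array 2 carried the dyes exchanged. The arrays measure the same pair of pools, so they are 1 biological replicate, and no p-value can be given. In pooled tissue, fewer cells of a type and less RNA per cell cannot be told apart.

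Auxin acts by bringing Aux/IAA proteins to the receptors of the TIR1 and AFB family, which mark them for destruction through a short degron in the protein. Aux/IAA proteins otherwise hold the auxin response factors (ARFs) in check, and their loss lets ARFs switch on target genes. Many Aux/IAA and SAUR genes and several GH3 genes are themselves such early targets. Aux/IAA genes thereby feed back on signalling, GH3 enzymes of the second sequence group link free indole-3-acetic acid to amino acids, and SAUR proteins promote cell expansion. Together the families are a common readout of auxin signalling in shoots.

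All values are log2 ratios of cer6-2 over Ler-0, given for array 1 and array 2 and as their mean ± the SD between the 2 arrays. This SD covers labelling and hybridisation and leaves out variation between plants. The direction is likely rather than settled: the dyes are stated, but which channel is on top of the ratio is not, and with the opposite convention every higher reads as lower. A gene was called when both arrays put it at least 2-fold to the same side of 0, a rule of size and not a test. Across all 9236 measured genes 1.32% met this rule, 0.595% higher and 0.725% lower in cer6-2. At 1.5-fold 3.70% did, 1.80% higher and 1.91% lower. The Pearson correlation between the turned arrays was 0.17 across genes, which are not independent replicates, and Spearman's rho was -0.04. Only ratios were deposited, so the level of a transcript, and with it the presence of the named tissue's own genes, cannot be read from them. CER6 had no named feature, so the labels could not be checked against the mutated gene.

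None of the 11 genes was called at 2-fold, against 1.32% of all measured genes. IAA29 was the one gene at least 1.5-fold lower in both arrays, 1 of 11 against the 1.91% of all genes. None was at least 1.5-fold higher in both, against 1.8% of all genes. At such shares 11 genes are too few for a count of 0 or 1 to set them apart. Both ratios lay within 1.5-fold of equality for 9 of the 11, or 81.8%, against 76.0% of all measured genes. The median of the 11 means was 0.09, against 0.00 over all genes. Without IAA29 the median size of the means, whatever their sign, was 0.21 for the other 10 genes, against 0.15 over all genes.

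**Figure D1:**
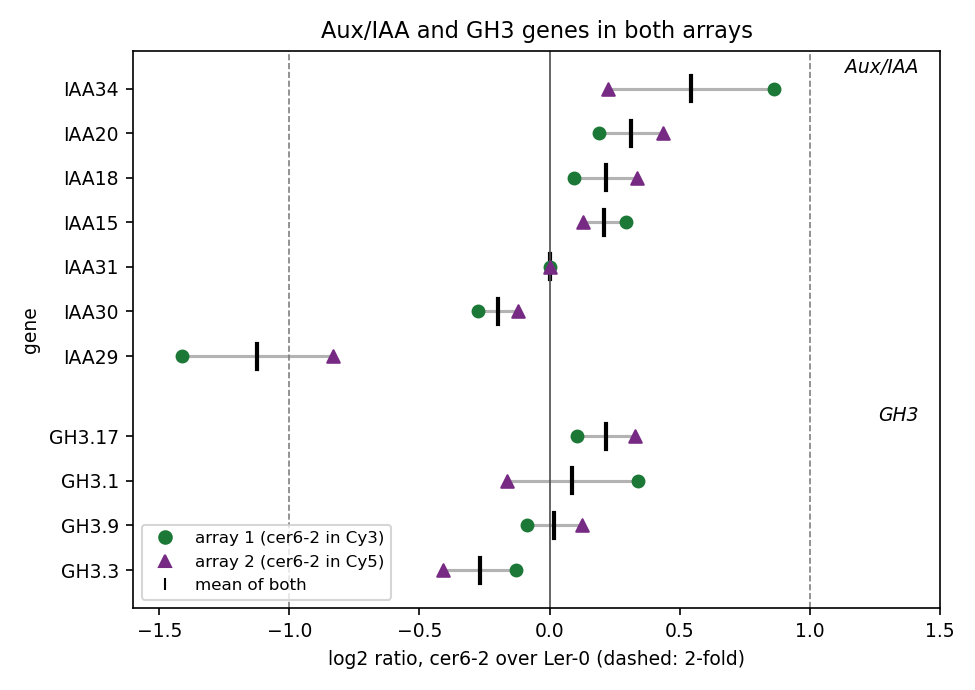
Log2 ratio of cer6-2 over Ler-0 for the 7 Aux/IAA and 4 GH3 genes. Circles show array 1, triangles array 2, black bars the mean of both and dashed lines 2-fold; IAA29 at -1.41 and -0.83 lies left of all other genes in both arrays, and IAA34 at 0.86 and 0.22 has the highest mean.

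IAA29 (AT4G32280) encodes an Aux/IAA repressor with a degron, known in Arabidopsis as a gene induced by auxin and by shade through phytochrome interacting factors. Its deposited log10 ratios were 0.426 in array 1 and -0.251 in array 2. Turned to cer6-2 over Ler-0 and put on the log2 scale, these are -1.41 and -0.83. The transcript was therefore 2.66-fold lower in cer6-2 in array 1 and 1.78-fold lower in array 2, so array 2 kept it from being called at 2-fold. The mean was -1.12 ± 0.41, a 2.18-fold lower ratio. Only 84 genes, 0.909% of all measured, had a lower mean, and 1.31% had a mean at least 2-fold lower. In array 1 alone 0.974% of genes lay below it, and in array 2 alone 3.09%. These are places of the lowest of 11 genes, not of a gene singled out beforehand. The higher of the IAA29 ratios, -0.83, was below the lowest ratio of any other gene of the 11, -0.41 for GH3.3 in array 2. The arrays disagreed on its size more than for most genes, and 30.4% of measured genes had a larger SD. Had the columns been turned before deposit, which no source states, the ratios would be 1.41 and -0.83 and the arrays would disagree in sign.

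The other Aux/IAA genes with a degron were close to equal in the genotypes. IAA15 (AT1G80390) stood at 0.29 in array 1 and 0.13 in array 2, with a mean of 0.21 ± 0.12. IAA18 (AT1G51950), known from Arabidopsis mutants with altered embryo and lateral root patterning, stood at 0.10 and 0.34, with a mean of 0.22 ± 0.17. Both lay slightly above 0 in each array, and their ranges overlapped, so neither can be placed above the other.

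The other 4 measured Aux/IAA genes, IAA20, IAA30, IAA31 and IAA34, encode proteins known to lack the degron or to carry a degenerate one, which makes them longer-lived. IAA34 (AT1G15050) had the highest mean of the 11 genes, with 0.86 in array 1 and 0.22 in array 2. Its mean of 0.54 ± 0.45 is a 1.46-fold higher ratio in cer6-2, and 3.87% of measured genes had a higher mean. That place rested on array 1, where it was 1.82-fold higher. In array 2 it was 1.17-fold higher, below IAA20, IAA18 and GH3.17.

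IAA20 and IAA30 are close relatives within the family and went opposite ways, by small amounts. IAA20 (AT2G46990) stood at 0.19 and 0.44, with a mean of 0.31 ± 0.17. IAA30 (AT3G62100), known for its expression around the root quiescent centre, stood at -0.28 and -0.12, with a mean of -0.20 ± 0.11. The ratios of the 2 genes did not overlap between the arrays, yet all 4 lay within 1.5-fold of equality. IAA31 (AT3G17600), of the same branch, was listed at exactly 0 in both arrays, as were 166 measured genes in all (1.80%), and such a value gives no direction.

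As a family the Aux/IAA genes had a median of 0.21, with 0.10 in array 1 and 0.13 in array 2. Of the 7, 4 had a mean above 0, 2 below, and IAA31 was at 0. All but IAA31 kept their sign in both arrays, 6 of 7 or 85.7%, and 43.5% of all measured genes did. A share of 7 genes is coarse, and the difference between these shares was not tested. The median was 0.21 for the 3 genes with a degron and 0.16 for the 4 without, and the means of the first overlapped those of the second. Without IAA29 the family's median was also 0.21, because 1 gene hardly moves it. The gene table names 24 genes with an IAA number, so most of the family has no named feature here. Among them are IAA1, IAA5 and IAA19, which are known as strongly auxin-induced and may lie among the unnamed features.

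The 4 measured GH3 genes all belong to the second sequence group. GH3.3 (AT2G23170), a rapidly auxin-induced conjugating enzyme, had the lowest mean, with -0.13 in array 1 and -0.41 in array 2. Its mean was -0.27 ± 0.20, and both arrays put it below 0. GH3.17 (AT1G28130), which in Arabidopsis joins auxin mainly to glutamate, had the highest, with 0.11 and 0.33 and a mean of 0.22 ± 0.16. The ratios of GH3.3 and GH3.17 did not overlap, although all 4 were within 1.5-fold of equality.

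GH3.1 and GH3.9 had no settled sign. GH3.1 (AT2G14960), another auxin-induced member, stood at 0.34 in array 1 and -0.17 in array 2, with a mean of 0.09 ± 0.36. GH3.9 (AT2G47750), linked in Arabidopsis to primary root growth, stood at -0.09 and 0.12, with a mean of 0.02 ± 0.15. Before array 1 was turned, each of these genes lay on the same side of 0 in both deposited columns, and whether its small ratio follows the dye or the genotype was not tested. The family's median was 0.05, with 0.01 in array 1 and -0.02 in array 2, and 2 of 4 genes kept their sign.

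In order of mean, the 11 genes ran from IAA29 at -1.12 through GH3.3, IAA30, IAA31, GH3.9, GH3.1, IAA15, IAA18, GH3.17 and IAA20 to IAA34 at 0.54. Neighbours in this order had ratios apart from each other in 2 places, between IAA29 and GH3.3 and between IAA30 and IAA31. The second gap rests on IAA31 being listed at exactly 0 in both arrays, a value without spread, so it does not settle their order. Every other pair of neighbours overlapped, so their ranges do not settle their order. Compared within each array, IAA20 was above GH3.17 in both, at 0.19 against 0.11 and 0.44 against 0.33. The remaining overlapping pairs changed places between the arrays. The 2 families were intermixed along this order. The median distance between the arrays was 0.24 for the 11 and 0.37 over all genes, and the widest of the 11 was 0.64, for IAA34. For the 11 this median distance was larger than the median size of their means, 0.22. IAA31 enters it with a distance of 0 because of its listed values.

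**Figure D2:**
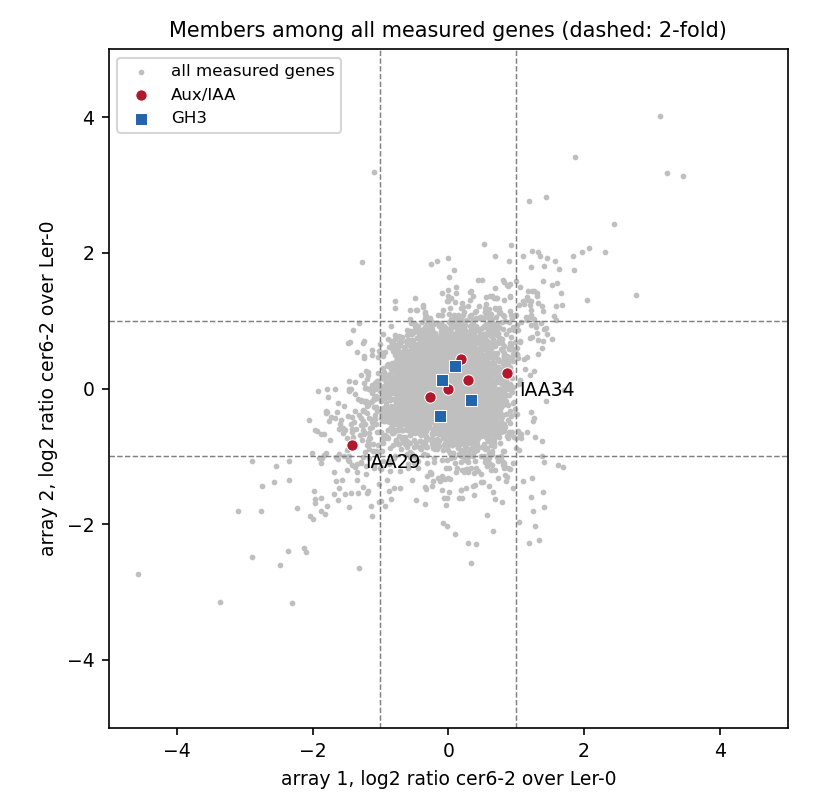
Log2 ratio of cer6-2 over Ler-0 in array 1 (x axis) against array 2 (y axis). Grey points are the 9236 measured genes, red circles the Aux/IAA genes, blue squares the GH3 genes and dashed lines 2-fold; 10 of the genes lie inside the 2-fold limits of both arrays, and IAA29 lies beyond the limit of array 1 but not of array 2.

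The rest of the auxin pathway was sparsely measured. Of 139 genes listed for auxin synthesis, transport, perception, inactivation and other early targets, 14 had a named feature. None of the 14 was 1.5-fold or more to one side in both arrays, against 3.7% of all measured genes. With so few genes, that count does not set them apart from this share. Their median was 0.09. The arrays gave opposite signs for 6 of the 14, and for 4955 of all 9236 measured genes.

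For synthesis, 3 of the 30 listed genes were measured, all of them YUCCA flavin monooxygenases, which carry out the last step from tryptophan to auxin. YUC2 stood at -0.49 in array 1 and -0.65 in array 2, a mean of -0.57 ± 0.12. YUC4 stood at 0.18 and 0.25, and YUC6 at 0.85 and -0.19, with opposite signs. The YUC2 ratios were below those of the other two in both arrays, and its mean was a 1.49-fold lower ratio in cer6-2.

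For transport and perception, 3 genes were measured. The protein kinase genes PID2 and WAG2, of the family that directs PIN auxin carriers, stood at 0.22 and 0.65, and at 0.15 and -0.11. SKP2A, an F-box protein gene of cell cycle control that has been described as an auxin-binding protein, stood at 0.32 and 0.69, a mean of 0.51 ± 0.26. No TIR1 or AFB receptor gene had a named feature. The glucosyltransferase genes UGT84B1 and UGT74D1, which join auxin or its oxidised form to glucose, stood at 0.30 and -0.45, and at 0.31 and -0.0038.

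Of 36 other early auxin targets 6 were measured, with a median of -0.03. The lowest was HAT2, a homeodomain-leucine zipper gene induced by auxin, at -0.25 in array 1 and -1.25 in array 2. EXPA4, an expansin that loosens the cell wall, showed the same split, at -0.15 and -1.31. Both were beyond 2-fold in array 2 alone, the opposite of IAA29, which was beyond 2-fold in array 1 alone. The highest was XTH19, a xyloglucan-modifying enzyme, at 0.25 and 0.13. The lateral organ boundaries gene LBD16, a direct ARF target in lateral root founder cells, stood at 0.27 and 0.01.

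**Figure D3:**
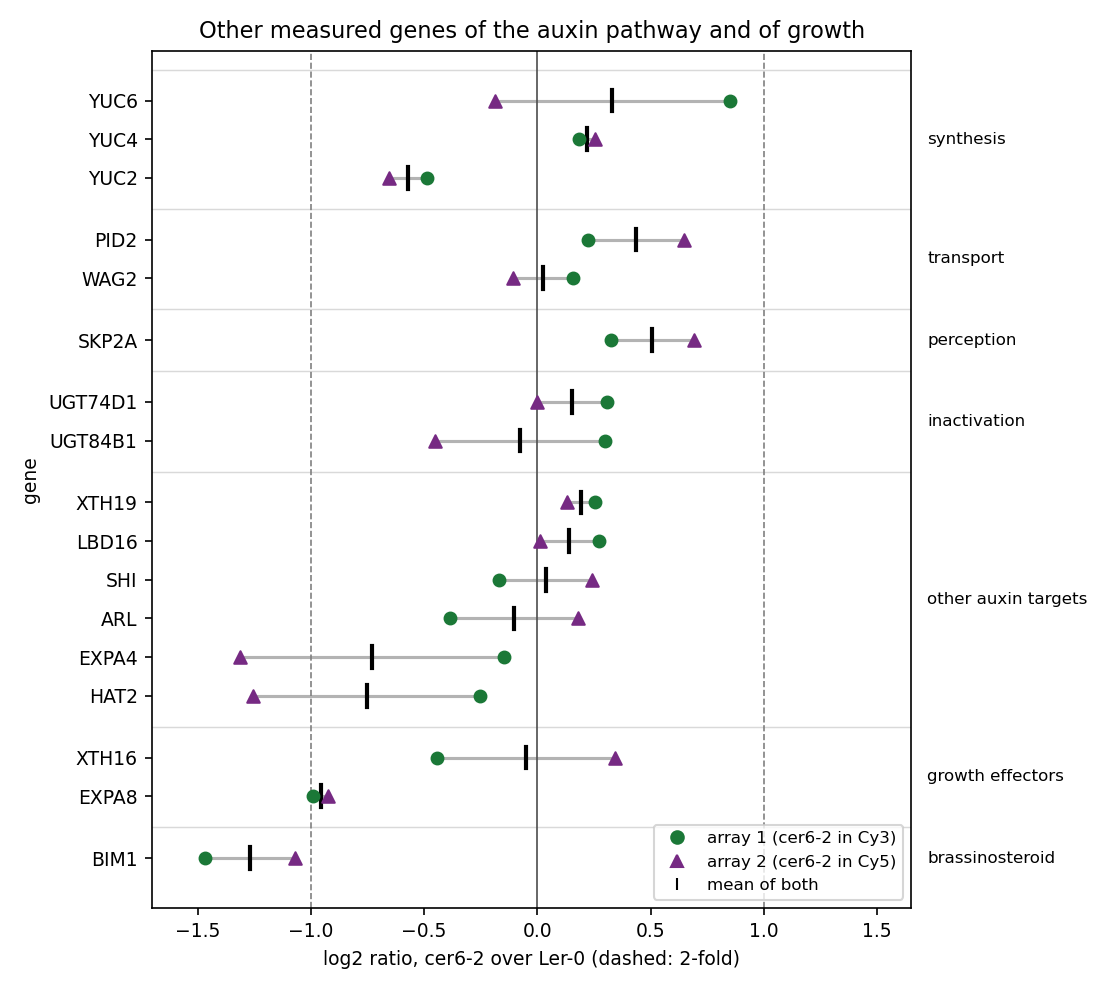
Log2 ratio of cer6-2 over Ler-0 for 17 other measured genes, grouped by role, with circles for array 1, triangles for array 2, black bars for the mean and dashed lines for 2-fold. BIM1 at -1.47 and -1.07 is the one gene beyond 2-fold in both arrays, and EXPA8 at -0.99 and -0.92 lies just inside.

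Auxin shares growth targets with brassinosteroid, light and shade signalling. The list of proton pumps, phosphatases, expansins and wall enzymes taken as growth partners of SAUR proteins had 2 of 18 genes measured. Neither was a pump or phosphatase gene, so they are no readout of SAUR action. EXPA8, an expansin, was at least 1.5-fold lower in both arrays, as were 1.91% of all measured genes. It stood at -0.99 and -0.92 with a mean of -0.96 ± 0.05. XTH16 stood at -0.44 and 0.34, with opposite signs. Of 23 genes of brassinosteroid synthesis and response only BIM1 was measured, which encodes a partner of the transcription factor BES1. It was called lower, at -1.47 and -1.07 with a mean of -1.27 ± 0.28, as were 0.725% of all measured genes. A single gene cannot stand for its list. None of the 19 genes listed for shade and for phytochrome interacting factors and their targets had a named feature. No gene of that list can therefore be set beside IAA29.

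Markers of other organs were given for the pools because several Aux/IAA genes are mainly known from roots. Of 17 root markers 5 were measured, with a median of -0.15. The beta-glucosidase PYK10 was at least 1.5-fold higher in both arrays, at 0.79 and 0.68, as were 1.8% of all measured genes. EXPA7, EXPA18 and AGL42 had opposite signs in the arrays and XTH26 was listed at 0. The lowest mean of the list was that of EXPA7, at -0.46 ± 1.02. The flower marker SPL, 1 of 15 listed, stood at 0.44 and -0.40. The 3 of 20 photosynthesis genes measured had a median of 0.08, from RCA and LHCB4.1 at 0.08 each to LHCB4.2 at 0.25. The arrays gave LHCB4.2 opposite signs, at 0.71 and -0.22. The part of tissue makeup in the IAA29 ratio was not tested.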

How the data were processed

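The values deposited by the authors, 1 for each of 22575 features on each Agilent two-colour array, were read as log10 ratios. The base is inferred from the limit of the values, 2 in size, and the median of each column is 0. No source used here names the background correction, dye normalisation or software, and signal levels were not used. Per the labels, array 2 is the dye swap of array 1. Ratios were read as Cy5 over Cy3, array 1 was multiplied by -1, and values were converted to log2 with Python 3.11.15, pandas 2.3.3 and numpy 2.4.6. Of the features, 9375 were annotated in the platform table and 9317 matched 1 gene of the TAIR10.1 gene table, which gave 9236 genes after averaging features. The build used for the array is not named, so no coordinates are given.

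The gene families and lists were chosen with earlier results of these data known. The text names every gene of the families found, and of each further list every gene that both arrays put 1.5-fold or more to one side, otherwise its highest and lowest. Other genes of the lists (YUC4, LBD16, EXPA4, XTH16, EXPA7, EXPA18, AGL42, XTH26 and LHCB4.1) were named after their values were seen. Another 16 symbols of family genes (such as AXR3, SHY2, MP and JAR1) were looked up in the gene table, and 0 had a named feature. The calling code was checked on simulated ratios. No significance test between genotypes was run, since there is 1 pool of each. The 12 alternatives covered thresholds, single arrays, centring, probe averaging, direction, log base, gene names and features at 0.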

Additional observations from a re-analysis of the deposited data

How the results depend on the processing

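IAA29 was the one gene of the 11 whose call changed with a setting. It was not called at 2-fold in both arrays, but 1 gene of the 11, IAA29, was lower at 1.5-fold, by the mean of both arrays and in array 1 alone, and 0 in array 2 alone. The Aux/IAA median was 0.21, against 0.10 to 0.13 in single arrays, 0.077 if the columns were deposited already turned and 0.063 with values read as log2. The GH3 median was 0.05, against -0.021 to 0.010 in single arrays, -0.018 as turned and 0.016 as log2, so its sign is not settled. The median of all 11 was 0.09, against 0.10 to 0.12 in single arrays, 0.026 as log2 and 0.15 without features at 0 in both arrays. Over all genes, 55 were higher and 67 lower, against 166 and 176 at 1.5-fold, 11 and 20 at 3-fold, and 91 and 121 by the mean. In single arrays 114 to 169 were higher and 200 to 215 lower, as turned 2 and 13, and as log2 0 and 0. The cause was not tested, except that the threshold and the log base set their counts by construction. Centring on the named features shifted the mean by -0.01 and reversed the sign of 0 of the 11 genes. The shift alone put IAA31, listed at 0, at -0.012. Names from the gene table gave the same 11. No paired analysis was possible because there is 1 pool per genotype. Without signal levels, how far weak hybridisation limits these ratios is unknown.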
